A study of Mus musculus with 8 samples.

Results

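Potassium channels set how far and how long a cell is depolarised, and the Kcn gene symbols name their pore subunits and several of their helper subunits. In the beta cells of pancreatic islets, glucose metabolism is known to close the ATP-sensitive potassium channel, which depolarises the membrane and opens calcium channels, so that insulin is released. Voltage-gated and calcium-activated potassium channels then repolarise the cell, and tandem-pore-domain channels carry a background leak.

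The genes described here are all those with values whose symbol starts with Kcn. The files list 94 such symbols, and 92 of them had values, out of 17401 genes with values in all. Kcne1 and Kcnk18 were listed without values. All 94 are annotated as protein-coding genes in GENCODE M21, and they fall into 21 classes by symbol.

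RNA was taken from islets of C57BL/6 mice aged 12 weeks, in 4 libraries of ob/ob mice and 4 libraries of ob/+ mice. The ob allele is a mutation of the leptin gene, and ob/ob mice, which carry it on each copy, lack leptin and are known for obesity with insulin resistance, whereas ob/+ mice keep an intact copy. Islets were released with collagenase, purified on a density gradient and picked by hand. Whether a library is 1 mouse or a pool is not stated, and each p-value therefore reflects the spread among libraries, part of which may be technical. Values are FPKM, fragments per kilobase of transcript scaled to library size, so levels of different genes can be set beside each other.

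The libraries held 11363 to 11883 genes at 1 FPKM or more, and summed FPKM ran from 920734 to 1004230 in ob/ob and from 820968 to 880570 in ob/+. At the rough depth that steps among low values gave, 0.1 FPKM stands for about 1.7 fragments per kilobase of transcript, so levels near 0.1 rest on few fragments. The islet label was borne out by its defining hormones, with insulin (Ins1 and Ins2 together) at 57.1% to 65.6% of summed FPKM in ob/ob and 42.0% to 54.4% in ob/+. Library ob/+ 4 stood apart, with 13.6% of its FPKM from 12 acinar marker genes, against 1.85% to 6.28% in ob/ob and 4.05% to 7.33% in the other ob/+ libraries.

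The summed level of the Kcn genes was 471.6, 493.3, 542.0 and 502.8 FPKM in the ob/ob libraries, against 469.9, 495.8, 496.4 and 359.3 FPKM in the ob/+ libraries, so the groups overlapped. A few genes made up most of it. Kcnk16, the gene of an islet tandem-pore channel that is known to limit calcium entry in beta cells, held 46.9% ± 2.14 of the sum in ob/ob, against 39.8% ± 0.995 in ob/+ (SD, n = 4 each). Kcnj11, the pore subunit of the ATP-sensitive channel, held 8.99% ± 0.713 in ob/ob, against 12.2% ± 0.300 in ob/+ (SD, n = 4 each). Over all libraries 8 genes had a mean of 10 FPKM or more, and 18 genes stayed below 0.1 FPKM in every library.

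**Figure D1:**
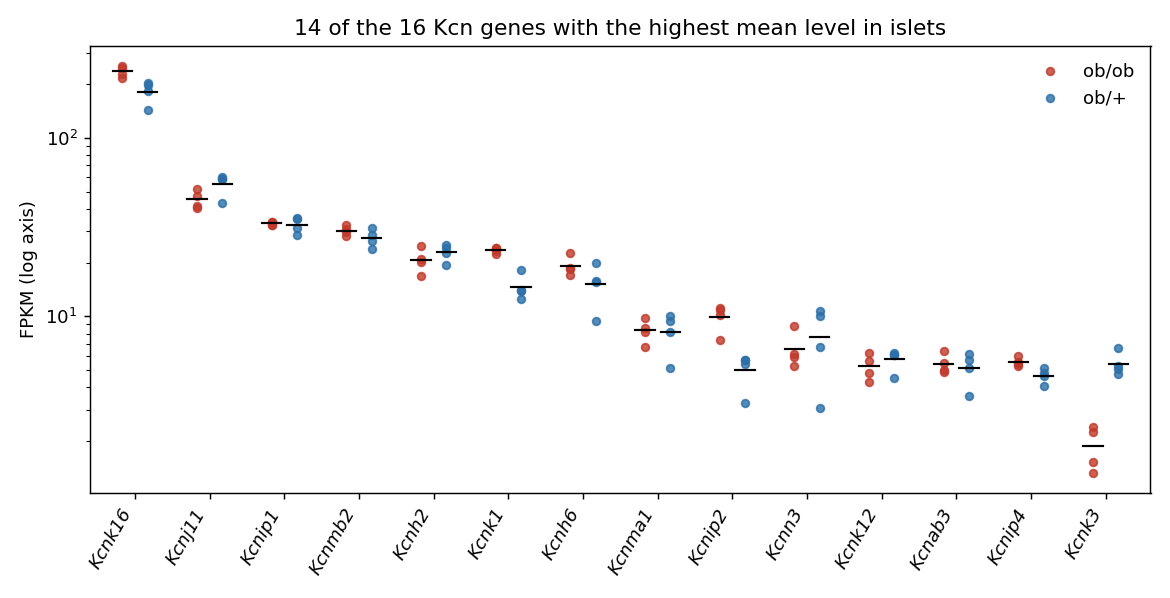
Level in FPKM (log axis) of 14 of the 16 Kcn genes with the highest mean over all libraries. Points are libraries, ob/ob in red left of ob/+ in blue, and lines are group means; Kcnk16 stands above all others in each genotype, and Kcnk3 at the right is lower in all 4 ob/ob libraries than in any ob/+ library.

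In ob/ob islets the order by mean level began with Kcnk16, Kcnj11, Kcnip1, Kcnmb2 and Kcnk1, at 235.6, 45.2, 33.1, 30.2 and 23.4 FPKM. The ranges of these neighbours did not overlap, whereas Kcnk1, Kcnh2 and Kcnh6 overlapped each with the next. In ob/+ islets the order began with Kcnk16, Kcnj11, Kcnip1, Kcnmb2 and Kcnh2, at 181.4, 55.4, 32.5, 27.5 and 22.8 FPKM. There only Kcnk16 and Kcnj11 stood clear of the next gene among the first 15. Kcnk1 was the fifth gene in ob/ob and the seventh in ob/+, and Kcnip2 the ninth in ob/ob and the fifteenth in ob/+.

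A gene was tested when it reached 1 FPKM in at least 4 libraries, which 33 of the 92 Kcn genes did. With limma on log2(FPKM + 1) and Benjamini-Hochberg adjustment over all 11747 tested genes, 6 Kcn genes rose and 6 fell in ob/ob at an adjusted p under 0.05. Over all tested genes 8.21% passed as higher and 10.6% as lower, 18.8% together. When each library was divided by its FPKM sum without the acinar genes, 4 Kcn genes passed as higher and 11 as lower. Kcnk16 and Kcnh1 were lost, and Kcnab2, Kcnd1, Kcnh2, Kcnj11 and Kcnk12 were gained. Of the 12 genes, 4 (Kcnj12, Kcnn2, Kcna5 and Kcns3) met the level filter through 1 genotype alone and so had to differ, which means that these counts say nothing about the family. Among the 33 tested genes every ob/ob library lay above every ob/+ library for 6 and below for 6, and over all tested genes for 9.75% and 10.7%. Over all 92 genes these numbers were 9 (9.78%) and 18 (19.6%), against 7.98% and 10.1% of all genes with values. The median log2 fold change was -0.09 over the 33 Kcn genes and -0.07 over all tested genes. Fold changes are ob/ob over ob/+ on the log2(FPKM + 1) scale, which understates the change of low genes.

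**Figure D2:**
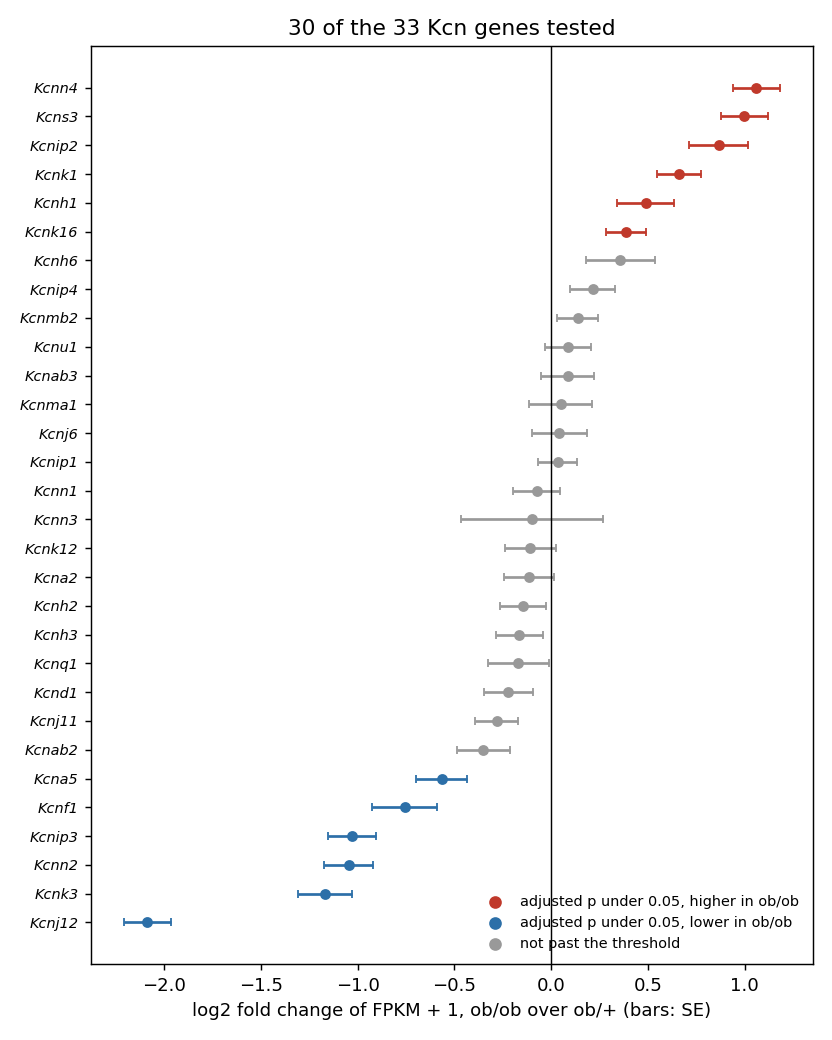
Log2 fold change of FPKM + 1, ob/ob over ob/+, with its standard error for 30 of the 33 Kcn genes tested. The 6 genes in red rose by 0.39 (Kcnk16) to 1.06 (Kcnn4), the 6 in blue fell by 0.57 (Kcna5) to 2.09 (Kcnj12), and the 18 in grey did not pass the threshold.

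The promoters of the most abundant Kcn gene and of the genes with the largest rise (Kcnn4) and the largest fall (Kcnj12) among those tested, on the log2(FPKM + 1) scale, are shown. By the ratio of means Kcns3 rose more than Kcnn4. Each is the RefSeq window of GRCm38.p6 from 250 bases before to 50 after the annotated start, 5′ to 3′. Capitals mark matches, on either strand, to the E-box CACGTG, the cAMP response element TGACGTCA, the TATA box motif TATAAA or the CCAAT box, which do not overlap here.
Kcnj12, chr11:61065554-61065853, plus strand: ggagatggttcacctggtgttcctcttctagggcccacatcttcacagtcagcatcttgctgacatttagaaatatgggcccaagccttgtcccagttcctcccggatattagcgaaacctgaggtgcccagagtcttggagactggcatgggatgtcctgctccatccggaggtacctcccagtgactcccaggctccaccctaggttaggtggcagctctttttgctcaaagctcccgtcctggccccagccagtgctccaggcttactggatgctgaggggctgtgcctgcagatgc
Kcnn4, chr7:24370013-24370312, plus strand: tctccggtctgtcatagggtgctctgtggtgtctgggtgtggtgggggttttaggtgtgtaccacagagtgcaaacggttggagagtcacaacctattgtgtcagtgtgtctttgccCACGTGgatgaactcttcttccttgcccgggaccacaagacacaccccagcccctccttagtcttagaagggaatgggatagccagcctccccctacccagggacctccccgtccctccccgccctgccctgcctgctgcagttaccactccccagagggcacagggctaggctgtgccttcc
Kcnk16, chr14:20269220-20269519, minus strand: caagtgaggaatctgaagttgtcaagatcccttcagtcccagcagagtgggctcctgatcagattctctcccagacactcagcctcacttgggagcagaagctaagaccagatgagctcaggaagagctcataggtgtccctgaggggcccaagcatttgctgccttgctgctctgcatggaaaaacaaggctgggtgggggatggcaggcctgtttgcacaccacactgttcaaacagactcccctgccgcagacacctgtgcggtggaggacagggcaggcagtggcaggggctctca
The Kcnj12 window lies inside the gene as annotated: its start is that of 2 of the 3 GENCODE transcripts and lies 43240 bases downstream of the first. The start of the Kcnk16 window is that of 0 of its 2 GENCODE transcripts and lies at -70 bases from the first, upstream of it. That window therefore lies wholly before the gene as GENCODE annotates it. The Kcnn4 window holds 1 CACGTG, and the windows of Kcnj12 and Kcnk16 hold none of the 4 motifs. CACGTG is in 7.15% of the 32851 promoters in the table, TGACGTCA in 1.79%, TATAAA in 13.6% and CCAAT in 37.4%. The table had promoters for 68 of the 92 genes, 93 windows in all, of which 7 held CACGTG, 0 held TGACGTCA, 5 held TATAAA and 29 held CCAAT. The windows of Kcnj12, Kcnn4 and Kcnk16 hold 4, 6 and 2 CG dinucleotides, against a median of 7 over all promoters.

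Among the inward rectifiers (Kcnj), which pass current more easily into the cell than out of it, the change of Kcnj12 was by far the largest of any Kcn gene tested. Kcnj12 (GRCm38 chromosome 11, 61022564 to 61071131, plus strand), the gene of a strong inward rectifier known for setting the resting potential of muscle and nerve cells, was at 0.06, 0.06, 0.11 and 0.04 FPKM in ob/ob. In ob/+ it was at 3.79, 3.08, 4.14 and 3.20 FPKM. The gene was thus near the limit of detection in all 4 ob/ob libraries and present in all 4 ob/+ libraries. The mean in ob/ob was 0.019 times that in ob/+, and the log2 fold change was -2.09 ± 0.12 (SE, limma adjusted p = 6.95e-12). It passed under all 21 alternative settings, with log2 fold changes of -4.45 to -2.01. Kcnj12 met the level filter through ob/+ alone and so had to differ, which limits what these calls can show. With no level filter it was called as well (limma adjusted p = 5.48e-07).

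The ATP-sensitive channel is built from Kcnj11 and the sulfonylurea receptor Abcc8, and their ratio was lower in ob/ob. Kcnj11 (chromosome 7, 46093953 to 46100764, minus strand) was at 41.7, 47.3, 51.4 and 40.4 FPKM in ob/ob, against 59.1, 60.4, 58.9 and 43.3 FPKM in ob/+. The groups overlapped through ob/+ 4 alone. Abcc8 was at 245.4, 242.3, 265.9 and 208.4 FPKM in ob/ob, against 204.7, 215.5, 228.5 and 151.5 FPKM in ob/+. Neither gene passed the limma test by itself, with log2 fold changes of -0.28 ± 0.11 for Kcnj11 (SE, adjusted p = 0.0844) and 0.28 ± 0.11 for Abcc8 (SE, adjusted p = 0.102). With the replicate block each passed, Kcnj11 as lower (limma adjusted p = 0.0359) and Abcc8 as higher (0.0336). The size of either change moved with the scaling and with single libraries. When libraries were scaled without acinar genes, Kcnj11 passed (-0.52, limma adjusted p = 0.000838) and Abcc8 was at 0.04 (adjusted p = 0.798), and without the 10 most abundant genes Abcc8 passed (0.40, adjusted p = 0.00751) and Kcnj11 was at -0.16 (adjusted p = 0.507). Without ob/+ 4 Kcnj11 passed (-0.39, limma adjusted p = 0.00177) and Abcc8 was at 0.15 (adjusted p = 0.178), and without ob/+ 3 Abcc8 passed (0.35, adjusted p = 0.0397) and Kcnj11 was at -0.25 (adjusted p = 0.206).

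The ratio of Kcnj11 to Abcc8 within a library does not depend on how libraries are scaled. It was 0.170, 0.195, 0.193 and 0.194 in ob/ob, against 0.289, 0.280, 0.258 and 0.286 in ob/+. Every ob/ob library was below every ob/+ library. The means were 0.188 ± 0.0122 in ob/ob, against 0.278 ± 0.0139 in ob/+ (SD, n = 4 each; exact two-sided permutation p = 0.0286 over 70 assignments, the smallest that 4 against 4 allow). This was the single ratio computed, and it was chosen with earlier results of these data known.

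**Figure D3:**
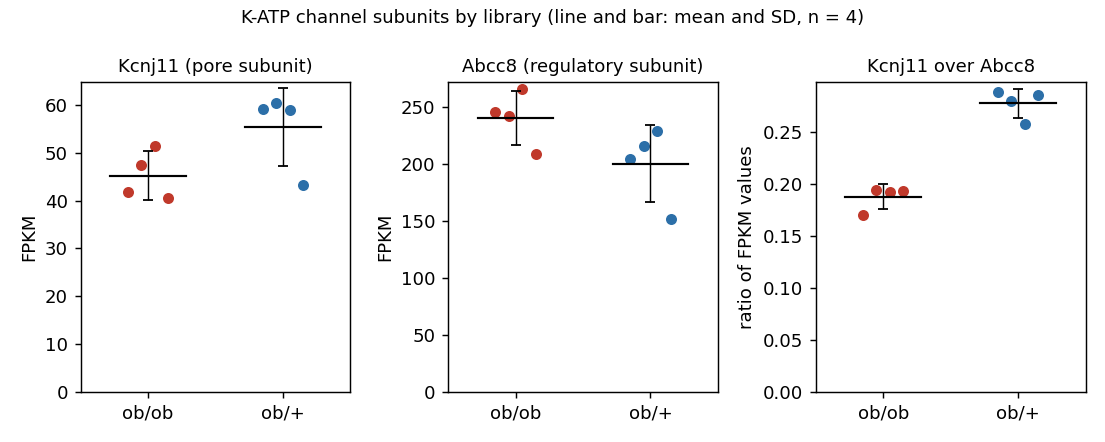
FPKM of Kcnj11 and Abcc8 and the ratio of their FPKM values in each library, ob/ob left of ob/+. Lines and bars are means and SD (n = 4); the single genes overlap between genotypes, and the ratio lies between 0.170 and 0.195 in ob/ob and between 0.258 and 0.289 in ob/+.

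The other ATP-sensitive pair, Kcnj8 and Abcc9, known from vascular smooth muscle and pericytes, was at low levels. Kcnj8 was at 0, 0.10, 0.53 and 0.24 FPKM in ob/ob, against 0.47, 0.51, 0.42 and 0.69 FPKM in ob/+, and was not tested. Of the subunits of G protein-gated rectifiers, Kcnj6 averaged 1.99 ± 0.419 FPKM in ob/ob, against 1.92 ± 0.494 in ob/+ (SD, n = 4 each; adjusted p = 0.869, limma). Its partner Kcnj3 lay below the filter, at 0.33, 0.32, 0.65 and 0.51 FPKM in ob/ob, against 0.99, 1.32, 1.25 and 0.93 FPKM in ob/+, without overlap. Kcnj10, a rectifier known from glia, was at 0.12 to 0.30 FPKM in ob/ob and 0.33 to 0.48 in ob/+. The 9 other Kcnj genes had means under 0.6 FPKM in each genotype, and their groups overlapped.

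The tandem-pore class (Kcnk) held members that rose and a member that fell. Kcnk16 (chromosome 14, 20261376 to 20269199, minus strand) was at 216.6, 227.8, 246.3 and 251.8 FPKM in ob/ob, against 181.9, 203.9, 197.1 and 142.6 FPKM in ob/+. Every ob/ob library was above every ob/+ library, and the log2 fold change was 0.39 ± 0.10 (SE, limma adjusted p = 0.00826). The call of Kcnk16 ended when the acinar genes were left out of the scaling (0.15, limma adjusted p = 0.202) and with acinar level as a covariate (0.25, adjusted p = 0.0787). That scaling divides each library by its FPKM sum without the acinar genes. It therefore also evens out summed FPKM, which was higher in every ob/ob library.

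Kcnk1, a weakly conducting member of the class, was at 22.3, 23.1, 24.3 and 24.0 FPKM in ob/ob, against 13.8, 18.1, 14.0 and 12.5 FPKM in ob/+. The 4 ob/ob libraries were close together and above all ob/+ libraries (log2 fold change 0.66 ± 0.11 SE, limma adjusted p = 0.000145). Kcnk3, an acid-sensitive leak channel, was at 1.33, 1.53, 2.25 and 2.40 FPKM in ob/ob, against 5.27, 5.03, 6.66 and 4.72 FPKM in ob/+. It fell by 1.17 ± 0.14 on the log2 scale (SE, limma adjusted p = 9.69e-07), again without overlap. Both calls held under all 21 alternatives.

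Kcnk12 averaged 5.24 ± 0.854 FPKM in ob/ob, against 5.72 ± 0.830 in ob/+ (SD, n = 4 each; limma adjusted p = 0.612). Below the filter, the mechanosensitive channel genes Kcnk2 and Kcnk10 lay on opposite sides. Kcnk2 was at 0.10, 0.07, 0.19 and 0.11 FPKM in ob/ob, against 0.44, 0.35, 0.52 and 0.43 in ob/+. Kcnk10 was at 0.45, 0.46, 0.27 and 0.30 FPKM in ob/ob, against 0.11, 0.17, 0.11 and 0.09 in ob/+. Kcnk5 and Kcnk9 were also higher in every ob/ob library, at 0.520 and 0.203 FPKM on average, against 0.348 and 0.0250 in ob/+. The 5 other Kcnk genes with values had means of 0.615 FPKM or less in each genotype.

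**Figure D4:**
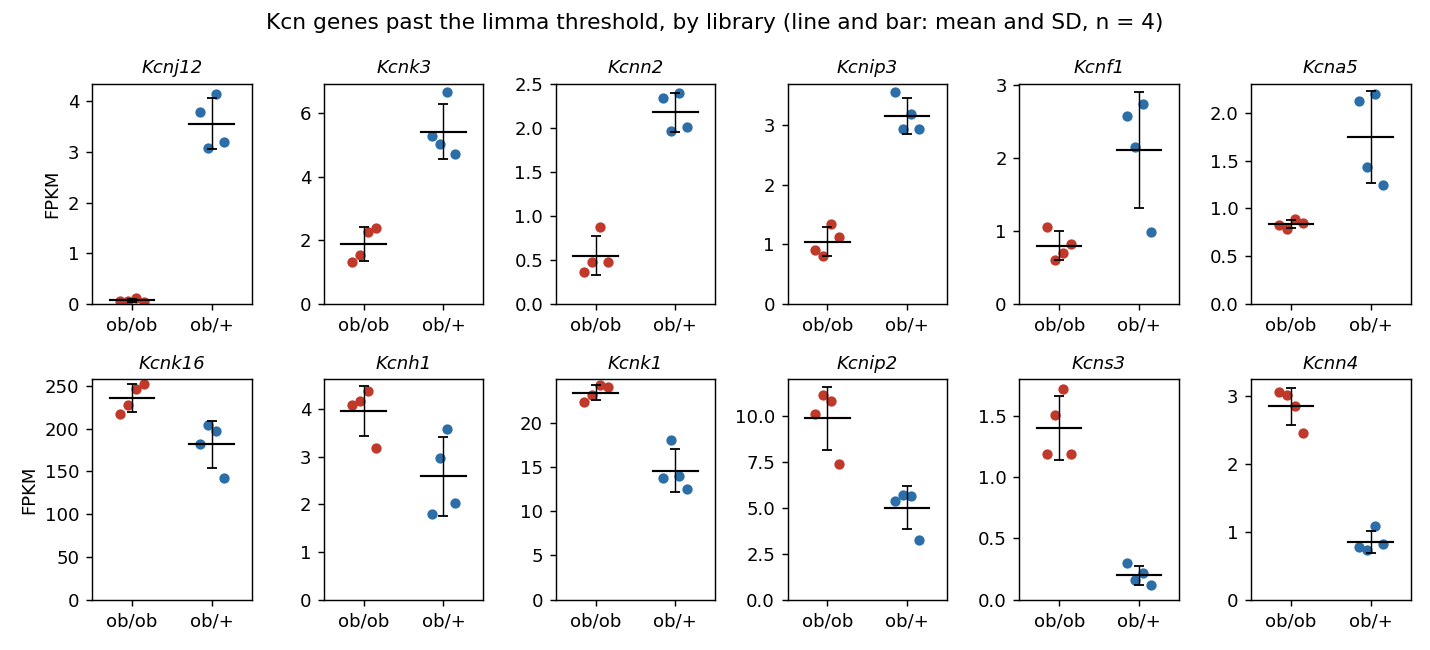
FPKM by library of the 12 Kcn genes that passed the limma threshold, ob/ob in red left of ob/+ in blue, with means and SD (n = 4). The upper row holds the 6 genes that fell and the lower row the 6 that rose; the groups overlap for Kcnf1 and Kcnh1 and are apart for the other 10.

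Among the calcium-activated channels, the small-conductance and intermediate-conductance genes (Kcnn) divided. Kcnn4, the intermediate-conductance channel (chromosome 7, 24370263 to 24386690, plus strand), was at 3.07, 3.02, 2.86 and 2.46 FPKM in ob/ob, against 0.77, 0.73, 1.08 and 0.82 FPKM in ob/+. Its log2 fold change of 1.06 ± 0.12 (SE, limma adjusted p = 4.78e-07) was the largest rise among the Kcn genes tested on this scale. At pseudocounts of 0.5 and 0.1 the rise of Kcns3 was larger, with log2 fold changes of 1.439 and 2.345, against 1.315 and 1.645 for Kcnn4. Kcnn2, a small-conductance channel (chromosome 18), was at 0.36, 0.48, 0.87 and 0.48 FPKM in ob/ob, against 2.34, 1.97, 2.40 and 2.01 FPKM in ob/+. It fell by 1.05 ± 0.13 on the log2 scale (SE, limma adjusted p = 1.13e-06). Neither gene overlapped between genotypes, and each passed under all 21 alternatives. Kcnn2 met the level filter through ob/+ alone and so had to differ.

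Kcnn3, the most abundant of the class, was at 5.24, 5.89, 8.84 and 6.18 FPKM in ob/ob, against 6.70, 10.65, 10 and 3.06 FPKM in ob/+. The spread within ob/+ spans the ob/ob values (log2 fold change -0.10 ± 0.37 SE, limma adjusted p = 0.883). Kcnn1 was at 1.15, 1.24, 1.29 and 0.87 FPKM in ob/ob, against 1.32, 1.28, 1.40 and 1.00 FPKM in ob/+ (adjusted p = 0.714, limma). The large-conductance pore gene Kcnma1 was at 8.17, 6.73, 9.80 and 8.59 FPKM in ob/ob, against 8.21, 9.97, 9.38 and 5.12 FPKM in ob/+, and did not pass (0.05 ± 0.16 SE, limma adjusted p = 0.867).

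Kcnmb2, the subunit that makes the large-conductance channel inactivate, was at a higher level per length than Kcnma1 in every library. It averaged 30.2 ± 1.78 FPKM in ob/ob, against 27.5 ± 3.24 in ob/+ (SD, n = 4 each; limma adjusted p = 0.395). The other subunits Kcnmb1, Kcnmb3 and Kcnmb4 had means of 0.610 FPKM or less. Kcnu1, the gene of a channel known from sperm, was at 1.84 to 2.33 FPKM in ob/ob and 1.89 to 2.04 FPKM in ob/+ (limma adjusted p = 0.656). The sodium-activated channel genes Kcnt1 and Kcnt2 did not exceed 0.19 FPKM in any library.

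Of the voltage-gated channel genes in the Kcnb and Kcnc classes, the members described here were low. Kcnb2 was at 0.71, 0.79, 0.93 and 0.73 FPKM in ob/ob, against 0.60, 0.49, 0.71 and 0.24 FPKM in ob/+, below the filter, with the ranges meeting at 0.71. Kcnc1 was at 0.04, 0.08, 0.10 and 0.07 FPKM in ob/ob, against 0.12, 0.04, 0.16 and 0.04 FPKM in ob/+. Kcnc2 was at 0.16 to 0.38 FPKM in ob/ob and 0.51 to 0.78 in ob/+, and Kcnc4 at 0.32 to 0.67 FPKM in ob/ob and 0.48 to 0.86 in ob/+.

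The electrically silent subunits (Kcnf, Kcng, Kcns and Kcnv) form no channel alone and are known to modify the Kcnb channels, and 2 of them passed in opposite directions. Kcns3 (chromosome 12, 11090202 to 11151056, minus strand) was at 1.19, 1.51, 1.72 and 1.19 FPKM in ob/ob, against 0.30, 0.16, 0.22 and 0.12 FPKM in ob/+. The ob/ob mean was 7.01 times the ob/+ mean, with no overlap (log2 fold change 1.00 ± 0.12 SE, limma adjusted p = 1.31e-06). Kcns3 met the level filter through ob/ob alone and so had to differ. Kcnf1 was at 1.06, 0.60, 0.70 and 0.82 FPKM in ob/ob, against 2.57, 2.15, 2.74 and 0.98 FPKM in ob/+. It fell by 0.76 ± 0.17 on the log2 scale (SE, limma adjusted p = 0.00368), and ob/+ 4 alone reached into the ob/ob range. The other silent subunits had means under 0.4 FPKM, with Kcng3 the highest.

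Of the shaker-type genes (Kcna), which carry fast voltage-gated currents in nerve, only Kcna2 and Kcna5 met the filter. Kcna5 was at 0.83, 0.78, 0.89 and 0.85 FPKM in ob/ob, against 2.13, 1.43, 2.20 and 1.25 FPKM in ob/+. It fell by 0.57 ± 0.13 on the log2 scale (SE, limma adjusted p = 0.00296), without overlap. Kcna5 met the level filter through ob/+ alone and so had to differ. Kcna2 averaged 0.950 ± 0.260 FPKM in ob/ob, against 1.11 ± 0.244 in ob/+ (SD, n = 4 each; adjusted p = 0.579, limma). Kcna1, Kcna4 and Kcna6 were near 0 in ob/ob, at 0.01 to 0.06, 0.01 to 0.08 and 0.02 to 0.13 FPKM, against 0.33 to 0.44, 0.15 to 0.22 and 0.42 to 0.79 FPKM in ob/+, with no overlap. Kcna3, Kcna7 and Kcna10 did not exceed 0.23 FPKM. Of the cytoplasmic beta subunits that bind Kcna channels, Kcnab2 did not pass (-0.35, limma adjusted p = 0.077). It passed, among other settings, without ob/ob 3 (-0.41, adjusted p = 0.0427) and without ob/+ 4 (-0.43, adjusted p = 0.0157). Kcnab1 and Kcnab3 averaged 0.590 and 5.42 FPKM in ob/ob, against 0.603 and 5.12 FPKM in ob/+.

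The A-type pore genes (Kcnd) were low, whereas their calcium-binding partners (Kcnip), which bring Kcnd channels to the cell surface, included some of the most abundant Kcn genes. Kcnd1 averaged 1.61 ± 0.343 FPKM in ob/ob, against 2.03 ± 0.136 in ob/+ (SD, n = 4 each; limma adjusted p = 0.239), lower in every ob/ob library though short of the threshold, and Kcnd2 and Kcnd3 stayed below 0.3 FPKM. Kcnip1 was at 32.6, 32.7, 33.6 and 33.7 FPKM in ob/ob, against 34.9, 35.3, 31.3 and 28.4 FPKM in ob/+, and did not pass (0.03 ± 0.10 SE, limma adjusted p = 0.852).

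Kcnip2 and Kcnip3 moved in opposite directions. Kcnip2 was at 10.2, 11.2, 10.8 and 7.40 FPKM in ob/ob, against 5.41, 5.71, 5.68 and 3.27 FPKM in ob/+. It rose by 0.87 ± 0.15 on the log2 scale (SE, limma adjusted p = 0.000305), with all ob/ob libraries above all ob/+ libraries. Kcnip3, which is also known as a calcium-sensitive transcriptional repressor, was at 0.91, 0.80, 1.34 and 1.13 FPKM in ob/ob, against 3.56, 2.93, 3.19 and 2.94 FPKM in ob/+. It fell by 1.03 ± 0.12 (SE, limma adjusted p = 1.14e-06). Kcnip4 averaged 5.54 ± 0.307 FPKM in ob/ob, against 4.64 ± 0.431 in ob/+ (SD, n = 4 each; limma adjusted p = 0.216). It was higher in every ob/ob library though short of the threshold. With median centring (limma adjusted p = 0.0187) and upper-quartile scaling (0.0202) it passed. Its exons overlap the opposite-strand genes 5730480H06Rik and Gm20700, which have no values, so its reads may be shared.

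The ether-a-go-go class (Kcnh) was led by Kcnh2, known for repolarising heart muscle, and its relative Kcnh6. Kcnh2 was at 20.02, 20.99, 24.75 and 16.73 FPKM in ob/ob, against 25.1, 22.7, 24.0 and 19.4 FPKM in ob/+ (log2 fold change -0.14 ± 0.12 SE, limma adjusted p = 0.436). Kcnh6 was at 18.68, 18.40, 22.61 and 16.98 FPKM in ob/ob, against 15.6, 15.7, 19.8 and 9.44 FPKM in ob/+ (0.36 ± 0.18 SE, limma adjusted p = 0.193). Kcnh6 passed without ob/+ 3 (0.49, limma adjusted p = 0.0267), and was at 0.16 without ob/+ 4 (adjusted p = 0.215) and at 0.13 without the acinar genes in the scaling (adjusted p = 0.567). Kcnh1 was at 4.09, 4.18, 4.38 and 3.19 FPKM in ob/ob, against 1.80, 2.97, 3.58 and 2.02 FPKM in ob/+.

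The call of Kcnh1 ended under more settings than that of any other of the 12 genes. Kcnh1 rose by 0.49 ± 0.15 on the log2 scale (SE, limma adjusted p = 0.0219), with overlap between ob/ob 4 and ob/+ 3. The call ended without ob/ob 1, 2 or 3 (limma adjusted p = 0.0603, 0.0569 and 0.0515), without ob/+ 1 (0.122), without ob/+ 4 and ob/ob 1 together (0.0938), without the acinar genes in the scaling (0.1), with the acinar covariate (0.0784) and with no level filter (0.0653). Kcnh8, below the filter, was at 0.48, 0.65, 0.49 and 0.49 FPKM in ob/ob, against 1.39, 1.10, 1.36 and 0.86 FPKM in ob/+, and Kcnh5 was at 0.11 to 0.18 FPKM in ob/ob and 0.31 to 0.47 in ob/+. Kcnh3 (1.00 FPKM in ob/ob and 1.24 in ob/+ on average) and Kcnh7 (0.0375 FPKM in ob/ob and 0.0425 in ob/+) share exon sequence with a listed gene on the opposite strand, Mcrs1 and Gca. The strand setting of the counting is not given in the sources used here, so their levels are uncertain. The same holds for Kcnj13, which overlaps Gigyf2. Among the genes that passed, Kcnk1, Kcnk3 and Kcnn2 share exon sequence with an annotated antisense gene that has no values in the files, and reads of the 2 strands cannot be told apart there.

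Of the Kcnq class, Kcnq1, known as a diabetes risk gene in human populations, was at 1.96, 1.19, 1.11 and 1.41 FPKM in ob/ob, against 1.58, 0.95, 2.24 and 2.25 FPKM in ob/+ (log2 fold change -0.17 ± 0.16 SE, limma adjusted p = 0.494). Its antisense neighbour Kcnq1ot1 overlaps it, so its reads may be shared. The M-current subunits of nerve, Kcnq3 and Kcnq5, were at 0 to 0.02 and 0.05 to 0.11 FPKM in ob/ob, against 0.08 to 0.12 and 0.25 to 0.41 FPKM in ob/+, without overlap. The single-span helper genes Kcne2, Kcne3, Kcne4 and Kcne1l and the regulator Kcnrg stayed below 0.8 FPKM in every library.

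Below the level filter lay 59 of the 92 genes, and for 12 of them every ob/ob library was lower than every ob/+ library, while for 3 every ob/ob library was higher. Over all genes below the filter the groups did not overlap for 8.67% as lower and 4.32% as higher, against 20.3% and 5.08% of these Kcn genes. The 12 were Kcna1, Kcna4, Kcna6, Kcnc2, Kcnd2, Kcnh5, Kcnh8, Kcnj3, Kcnj10, Kcnk2, Kcnq3 and Kcnq5, of which several are known mainly from neurons and glia. When limma was run with no level filter on all 17401 genes, 18 of the 92 Kcn genes passed as lower (19.6%) and 7 as higher (7.61%). Over all genes 8.54% passed as lower and 6.03% as higher in that fit. The 18 include each of the 12 low genes, and their log2 fold changes were small, as a pseudocount of 1 compresses low values.

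**Figure D5:**
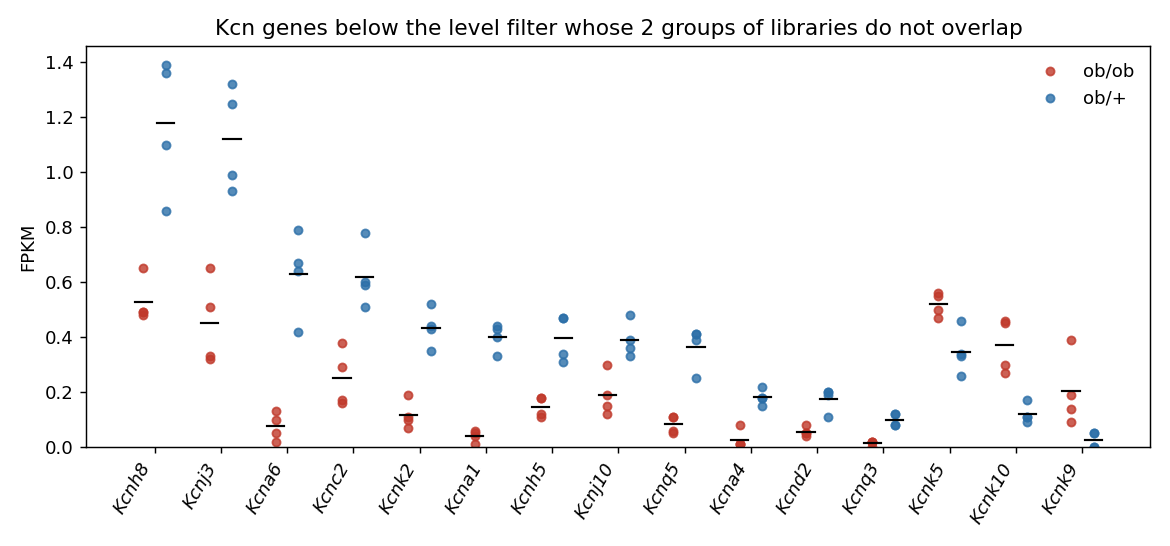
FPKM by library of the 15 Kcn genes below the level filter whose groups do not overlap, ob/ob in red left of ob/+ in blue, lines at group means. The 12 genes at the left are lower in every ob/ob library and Kcnk5, Kcnk10 and Kcnk9 at the right are higher; all values lie below 1.4 FPKM.

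Markers of other cells in the preparation were looked at as well, and they differed by cell type. Of 9 neuron markers 8 were lower in every ob/ob library and Snap25, which endocrine cells also express, was higher. Their summed level ran from 97.8 to 108.7 FPKM in ob/ob and from 96.3 to 126.7 in ob/+, mostly from Snap25 and Th. Prph was at 0.22 to 1.11 FPKM in ob/ob and 6.00 to 8.45 in ob/+, and Dbh was listed at 0 in 3 ob/ob libraries. Of 5 Schwann cell markers 4 were lower in every ob/ob library, Sox10 at 0.10 to 0.30 FPKM in ob/ob and 1.10 to 1.16 in ob/+, with summed levels of 7.53 to 9.94 FPKM in ob/ob and 10.5 to 12.9 in ob/+.

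Of 8 alpha cell markers 5 were lower in every ob/ob library and 1 was higher, with sums of 9012 to 12470 FPKM in ob/ob and 25390 to 31890 in ob/+. All 4 delta cell markers were lower, with sums of 1028 to 1471 FPKM in ob/ob and 5543 to 6201 in ob/+, as were both PP cell markers, with sums of 2718 to 4569 FPKM in ob/ob and 6922 to 11680 in ob/+. The part of these cell types in the Kcn results was not tested. In bulk RNA, fewer cells of a type and less RNA per cell cannot be told apart. Endothelial markers showed no such separation (0 of 5 in either direction), nor did macrophage markers (0 of 6). Of 9 pericyte and stellate cell markers 3 were lower and 2 higher, of 12 acinar and 5 duct markers 1 each was higher, and of 10 beta cell markers 4 were lower and 2, Ins2 and Iapp, higher.

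Genes whose proteins bind or assist potassium channels were read beside them. Of 17 such genes 16 had values and 13 were tested, of which 4 fell and 0 rose, where 10.6% of all tested genes fell and 8.21% rose. Their median log2 fold change was -0.14, against -0.07 over all tested genes. Dpp10, a partner of Kcnd channels, averaged 1.48 ± 0.134 FPKM in ob/ob, against 6.54 ± 1.40 in ob/+ (SD, n = 4 each; log2 fold change -1.59, limma adjusted p = 3.68e-09), while its relative Dpp6 did not pass (-0.29, limma adjusted p = 0.114), though it did without ob/+ 4 (-0.38, adjusted p = 0.00349). Stx1a, a syntaxin of the exocytosis machinery (-0.94, limma adjusted p = 3.14e-06), Cntnap2, which gathers Kcna channels on axons (-0.90, adjusted p = 0.00014), and Amigo1, a cell adhesion protein that joins delayed rectifiers (-0.42, adjusted p = 0.0288), fell. The call of Amigo1 held in 2 of 8 fits that left out 1 library (without ob/ob 3 or ob/+ 4) and ended in the other 6, with limma adjusted p of 0.0661 to 0.117. It also ended with no level filter (0.0694) and without the 10 most abundant genes in the scaling (0.178). Calm2 and Calm3, whose product calmodulin gates the Kcnn channels, averaged 144.1 and 107.8 FPKM in ob/ob, against 124.0 and 93.4 FPKM in ob/+, and did not pass (limma adjusted p = 0.0961 and 0.127), though both did with median centring (adjusted p = 0.00956 and 0.00941).

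The sodium pump, which builds the potassium gradient that these channels use, differed by subunit. Of 14 genes 11 were tested, of which 2 rose and 6 fell, where 8.21% of all tested genes rose and 10.6% fell. The median log2 fold change was -0.46, against -0.07 over all tested genes. Atp1b1 averaged 97.9 ± 6.67 FPKM in ob/ob, against 88.9 ± 17.5 in ob/+ (SD, n = 4 each), and did not pass (limma adjusted p = 0.404). Atp1b2, a beta subunit known from glia, averaged 12.4 ± 2.12 FPKM in ob/ob, against 23.0 ± 2.05 in ob/+ (SD, n = 4 each), and fell by 0.85 on the log2 scale (limma adjusted p = 1.17e-05). Atp1b3 (-0.46, limma adjusted p = 0.00267), Fxyd1 (-1.12, adjusted p = 0.0163) and Fxyd7 (-1.90, adjusted p = 0.000175) fell too, and the regulators Fxyd3 (0.50, limma adjusted p = 0.00147) and Fxyd6 (0.47, adjusted p = 0.0011) rose. The calls of Fxyd3 and Fxyd6 ended without the acinar genes in the scaling (0.27 and 0.23, limma adjusted p = 0.0511 and 0.0635), and that of Atp1b3 without the 10 most abundant genes (-0.34, adjusted p = 0.0714). The call of Fxyd1 ended without ob/ob 2 (adjusted p = 0.0546) and without ob/+ 3 (0.0602), with median centring (0.0553), upper-quartile scaling (0.0521) and the replicate block (0.0544).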

How the data were processed

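RNA of islets (1 µg of total RNA per library) was sequenced in 8 libraries, 4 of ob/ob and 4 of ob/+, grouped by the genotype in the labels' titles. The deposited tables hold FPKM: neither labels nor headers name the unit, which was read from the values (2 decimals, column sums that differ). The submitters' processing notes name Trimmomatic 0.36, DESeq2 1.20.0, mm10 and GRCm38, with no role stated; aligner and quantifier: not given in the sources used here.

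Of 20715 listed genes 17401 had values. The test was limma 3.58.1 (R 4.3.3, statmod 1.5.0, trend and robust eBayes, two-sided) on log2(FPKM + 1). It covered the 11747 genes that reached 1 FPKM in 4 libraries or more, and Benjamini-Hochberg adjusted p-values under 0.05 were called. The procedure was tested on simulated data with 100 changed genes of each size. It recovered 42% of changes of 0.5 on the log2 scale and 92% of changes of 1. Of its 144 calls there, 6.94% were false. A gene that did not pass may therefore still differ by a small amount. The ratio was tested with SciPy 1.17.1. FPKM carries no counts, so depth is a rough estimate from steps among low values (mean cosine of the fit 0.384 to 0.555, where 1 is exact), and no counting interval is given. No library was a duplicate of another (correlations of 0.987 to 0.996 within groups and 0.976 to 0.982 between them).

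The Kcn genes and the gene lists were chosen with earlier results of these data known. By rule, library values are given for channel genes set by name, for Abcc8 and for each Kcn gene that passed, and other members by range or count with single members of the highest level or largest difference in their class; further members shown by library were chosen after their values were seen. Counts cover every gene with values, of which a few are not reported here by name. Positions come from GENCODE M21 and promoters from RefSeq. Alternatives covered scaling, pseudocount, level filter, robust option, replicate block, acinar covariate and leaving out each library. A filter on the mean of all libraries, and leaving out ob/+ 4 together with ob/ob 1, were added after seeing the data.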

Additional observations from a re-analysis of the deposited data

Results flagged for a closer look

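Some libraries lay far from the other 3 of their genotype by Dixon's test of the gap to the nearest library. This held for 8 of 78 groups of 4 libraries examined, where chance gives about 1 in 20 for independent values without ties. Low values given to 2 decimals can tie, and several flags share library ob/+ 4. That rate is therefore only a rough guide here. In ob/+ 4, Kcnj11 was at 43.3 FPKM (58.9 to 60.4 in the other ob/+ libraries), Kcnip2 at 3.27 (5.41 to 5.71), Kcnq5 at 0.25 (0.39 to 0.41) and Kcnd2 at 0.11 (0.19 to 0.20). In ob/ob 3, Kcna4 was at 0.08 FPKM (0.01 in each of the other ob/ob libraries). Kcnh8 was at 0.65 FPKM in ob/ob 2 (0.48 to 0.49 in the others), and Kcnq3 was listed at 0 in ob/ob 1 (0.02 in each of the others). The ratio of Kcnj11 to Abcc8 was 0.170 in ob/ob 1 (0.193 to 0.195 in the others).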

How the results depend on the processing

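Of 419 values of single genes under 21 alternatives, 381 kept direction and side of the threshold, 18 newly passed, 10 no longer passed and 10 changed sign. The 10 that no longer passed were values of Kcnk16 and Kcnh1. Genes without a call changed sign as follows: Kcnn3 0.0014 without the 10 most abundant genes in the scaling, Kcnn1 5e-04 with median centring, Kcnq1 0.10 with the acinar covariate, Kcnn3 0.084 and 0.06 without ob/+ 2 and ob/+ 3 (range -0.42 to 0.084 over the fits that left out 1 library), and Kcnma1 -0.16 without the acinar genes in the scaling, -0.10 with the acinar covariate, -0.03 without ob/ob 3, -0.13 without ob/+ 4 and -0.13 also without ob/+ 4 and ob/ob 1 (range -0.13 to 0.15 over the fits that left out 1 library). The cause was not tested. Dividing each library by its FPKM sum without the acinar genes moved the median of all tested genes to -0.27, and Kcn genes passing as lower to 11 and as higher to 4. With median centring 9 rose and 7 fell. With no filter 18 fell, as 92 genes were then tested. Channel partners that passed numbered 7 with median centring, 8 with upper-quartile scaling and 7 without the acinar genes. Leaving out 1 library gave 5 to 7 Kcn genes higher, 6 to 9 lower, 3 to 6 channel partners and 7 to 8 sodium pump genes. A filter on the mean of all libraries, which leaves out Kcns3, gave 5 higher and 6 lower of 32. Over all genes 2208 passed (965 higher, 1243 lower), and 3428 with median centring (1867 higher, 1561 lower), 3397 with upper-quartile scaling, 1901 without the 10 most abundant genes (1272 higher, 629 lower), 5718 without the acinar genes (523 higher, 5195 lower), 3323 with the acinar covariate, 4955 without ob/+ 4 and 4183 without ob/+ 4 and ob/ob 1.

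Libraries with the same replicate number share only that number: their deviations correlated at -0.22, 0.21, 0.17 and 0.12, and not every library correlated best with its own number. With a replicate block 7 Kcn genes passed as higher and 7 as lower, Kcnh6 (limma adjusted p = 0.0228) and Kcnj11 (0.0359) among them, with 6 channel partners and 7 sodium pump genes. Depth limits genes near 0.1 FPKM.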
